A study of Mus musculus with 21 samples.

Results

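The Rab GTPases of membrane traffic were examined in RNAseq libraries of mouse conventional dendritic cells (cDCs), as the genes whose name in the files is Rab followed by a number and at most a letter and a further digit. This rule gave 58 of the 37734 genes listed. Of these, 49 had a normalized read count of at least 10 in at least 3 samples and were tested, and 9 were too low to test. The files use the names Rab1 for Rab1a and Rab7l1 for Rab29. Rab7b is listed under an older clone name, does not match the rule and was not counted, although its values are given beside those of Rab7.

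The cells were sorted by flow cytometry from spleen and thymus of C57BL/6 (B6) mice aged 6 to 8 weeks, after enrichment on CD11c beads, and the study's methods state that organs of several mice were pooled. cDC1 were sorted as CD11c+ CD24+ CD11b- cells that lacked F4/80, Ly6g, Ly6c, DX5 and B220, and cDC2 as CD11c+ CD11b+ CD24- B220- cells. Immature cells were CCR7- ESAM- and mature cells CCR7+ ESAM+, so that Ccr7 and Esam themselves are no result of the maturation comparison. The 6 groups were immature splenic cDC1 (SP1Minus, 5 libraries), immature thymic cDC1 (TH1Minus, 4), mature thymic cDC1 (TH1Plus, 3), immature splenic cDC2 (SP2Minus, 3), immature thymic cDC2 (TH2Minus, 3) and mature thymic cDC2 (TH2Plus, 3). No group held mature splenic cells. The design asks how Rab levels differ between mature and immature thymic cells, between thymus and spleen, and between cDC1 and cDC2.

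Rab proteins are small GTPases that mark the membranes of the cell. In their GTP-bound form they recruit effectors that move, tether and fuse vesicles, guanine nucleotide exchange factors (GEFs) switch them on, GTPase-activating proteins (GAPs) switch them off, and GDP dissociation inhibitors carry the inactive, prenylated form through the cytosol. Dendritic cells take up antigen into endosomes and phagosomes, and they carry MHC molecules, costimulatory molecules and cytokines to the surface, and each of these routes uses Rab proteins.

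The sequences upstream of 5 members that the maturation comparison turns on are shown first, for Rab8b, Rab21 and Rab9, the 3 members with the highest level per kb of exon in mature cDC1, and for Rab39 and Rab19, which fell in both subsets. Each is the 250 bases before the RefSeq start of the gene (GRCm38.p6), written along the strand of the gene, and capitals mark matches to the CCAAT box, to the GC box GGGCGG, to the E-box CACGTG, to the cyclic AMP response element TGACGTCA or to the NF-kB consensus, read on both strands. No match overlaps another in the windows shown. The windows lie at chr9:66919706-66919955 (minus strand), chr10:115315592-115315841 (minus), chrX:166479868-166480117 (minus), chr9:53706233-53706482 (minus) and chr6:39381103-39381352 (plus).
Rab8b: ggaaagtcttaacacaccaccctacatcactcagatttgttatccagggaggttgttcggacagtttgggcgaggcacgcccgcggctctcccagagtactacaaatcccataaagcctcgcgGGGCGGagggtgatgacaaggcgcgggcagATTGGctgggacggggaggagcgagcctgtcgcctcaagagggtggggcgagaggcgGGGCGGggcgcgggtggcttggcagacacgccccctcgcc
Rab21: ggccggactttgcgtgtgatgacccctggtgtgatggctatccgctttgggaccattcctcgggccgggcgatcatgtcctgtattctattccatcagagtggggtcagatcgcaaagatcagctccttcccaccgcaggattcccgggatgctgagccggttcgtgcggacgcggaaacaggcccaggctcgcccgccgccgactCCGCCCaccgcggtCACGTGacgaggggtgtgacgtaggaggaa
Rab9: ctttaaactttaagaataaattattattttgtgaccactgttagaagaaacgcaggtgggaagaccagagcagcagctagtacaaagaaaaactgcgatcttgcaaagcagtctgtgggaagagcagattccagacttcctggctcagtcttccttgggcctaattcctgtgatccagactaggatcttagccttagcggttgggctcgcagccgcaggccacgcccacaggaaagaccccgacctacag
Rab39: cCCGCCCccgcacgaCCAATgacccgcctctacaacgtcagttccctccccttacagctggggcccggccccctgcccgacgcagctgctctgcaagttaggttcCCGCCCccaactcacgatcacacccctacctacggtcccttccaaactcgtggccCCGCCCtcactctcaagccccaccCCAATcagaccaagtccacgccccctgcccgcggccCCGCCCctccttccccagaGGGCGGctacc
Rab19: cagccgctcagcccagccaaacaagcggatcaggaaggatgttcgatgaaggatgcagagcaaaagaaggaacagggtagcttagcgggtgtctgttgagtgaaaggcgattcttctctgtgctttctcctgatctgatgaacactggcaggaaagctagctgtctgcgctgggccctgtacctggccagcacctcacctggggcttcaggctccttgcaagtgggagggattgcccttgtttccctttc
The Rab8b window held GGGCGG at 2 positions and CCAAT, on the opposite strand, at 1. That of Rab21 held 1 match to GGGCGG, on the opposite strand, and 1 to CACGTG. The Rab39 window held 5 matches to GGGCGG and 2 to CCAAT, while those of Rab9 and Rab19 held no match. Over the family, 48 members had a RefSeq window, and Rab18, Rab26, Rab27b, Rab2a, Rab30, Rab36, Rab37, Rab38, Rab44 and Rab4a did not. GGGCGG was present in 36 of the 48, or 75.0%, against 35.4% of the 27025 genes with a window. CCAAT was present in 24 of the 48 (against 37.5% of genes), CACGTG in 5 (10.4%, against 6.86%), TGACGTCA in 2 (4.17%, against 1.77%) and the NF-kB consensus in 2, Rab15 and Rab28 (4.17%, against 4.46%). Of the 14 members that rose at maturation in both subsets, 11 had a window, and 8 of the 11 held GGGCGG, 3 held CCAAT, 2 held CACGTG (Rab21 and Rab23) and 0 held the NF-kB consensus. A match describes the letters of the window and is not a binding site.

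The libraries held 14266867 to 40119669 reads (median 24768633). Immature splenic cDC1 replicates 4 and 5 differed far less from each other than other pairs of that group did (chi-square per degree of freedom 2.53 against 26.9 to 190.4) and were counted as 1 sample, which left 20 samples. Replicate 1 of that group carries the same number in the labels but another lane. It differed from replicates 4 and 5 (58.7 and 51.5) and was kept apart, although the labels do not show that it is independent of them. Replicate 3 of the same group stood furthest from the others (108 to 190.4). In the same measure mature cDC2 replicate 3 (135 and 155, against 29.1 for the other pair) and splenic cDC2 replicate 2 (115 and 143, against 38.3) also stood apart within their groups. So did immature thymic cDC1 replicate 3 (60.9 to 100.5, against 24.6 to 40.1 for the other pairs). The cDC1 markers Xcr1 and Clec9a and the cDC2 markers Cd209a and Mgl2 separated the immature groups, and each was lower in the mature than in the immature thymic cells of its own subset. Other markers of these lists did not all follow. The mean of Itgae was 5655 in immature thymic cDC2 and 1609 in splenic cDC1. Batf3 rose at maturation in cDC1 (1427 to 4998) and cDC2 (648 to 4532), and the cDC2 marker Irf4 rose in cDC1 (189 to 2358). The summed level of 7 cDC1 markers was 40531 to 44177 in mature cDC1 and 14331 to 22462 in mature cDC2, most of it Irf8 (means 34273 and 13787). Markers of T cells and thymocytes moved with maturation, from a sum of 175 to 235 in immature to 1499 to 2304 in mature thymic cDC1 and from 212 to 315 to between 842 and 1347 in mature thymic cDC2, with 8 of 9 markers at a mean of at least 10 in mature cells and Ptcra at or near 0. The sum of 8 macrophage and monocyte markers was also higher in mature than in immature thymic cDC1 (5932 to 8673 against 1901 to 2539), and overlapped in cDC2. Vcam1 carried that sum (mean 6740 against 695), whereas the means of Csf1r (40.1 against 991), Ly6c2, C1qa and C1qc were lower in mature cDC1. The sum of 6 thymic epithelial markers was 597 to 711 in immature and 1805 to 2579 in mature thymic cDC1, most of it Aire (mean 1793 in mature cells), with Krt5 at 22.1 and 98.6 and Krt8 at 41.4 and 94.4. In cDC2 that sum was 3507 to 3877 and 3817 to 4878, with Krt5 at 32.5 and 175 and Psmb11 at 13.0 and 108. The part of these markers in the results was not tested. In bulk samples, fewer cells of a type and less RNA per cell cannot be told apart. The labels do not say that replicates came from separate mice, so the p-values measure only the spread between these samples.

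Per kb of exon, the scale on which levels of different genes can be compared, Rab7, which directs late endosomes to lysosomes, was the most abundant Rab in all 4 immature groups. Its level per kb was 3397 ± 239 (SD, n = 4) in splenic cDC1, 4186 ± 347 (n = 4) in immature thymic cDC1, 2601 ± 131 (n = 3) in splenic cDC2 and 3394 ± 163 (n = 3) in immature thymic cDC2. In mature cells the first place passed to Rab8b, a Rab of transport from the Golgi to the plasma membrane. Rab8b reached 11388 ± 1221 per kb (n = 3) in mature cDC1 and 6864 ± 1416 (n = 3) in mature cDC2, which was 29.8% and 21.9% of the summed level of the family. Rab9, which returns receptors from late endosomes to the Golgi, came second in both mature groups, at 3344 ± 213 and 3119 ± 781 per kb. In mature cDC2 Rab7 and Rab21 followed at 2186 ± 210.1 and 2174 ± 365, which did not differ beyond their spread. Second place in both immature cDC1 groups belonged to Rab32 (2010.3 ± 207 in spleen, within the spread of Rab5c at 1929 ± 260.5, and 2705 ± 77.8 in thymus), and in both immature cDC2 groups to Rab5c. The 58 genes together took 0.232 to 0.369% of a library's reads in immature samples and 0.401 to 0.540% in mature samples, without overlap. With Rab8b left out, their summed normalized count was 79613 to 101482 in the mature samples and 52113 to 73996 in the immature ones. The total normalized count of a library was also higher in mature samples (2.63e+07 to 3.15e+07) than in immature ones (2.13e+07 to 2.44e+07). Without Rab8b, the summed count was 81849 of a total of 2.79e+07 in mature cDC2 replicate 2. In immature thymic cDC1 replicate 4 it was 70590 of 2.19e+07, a larger share. The share without Rab8b thus overlapped between mature and immature samples, unlike the summed counts.

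Maturation moved more Rab genes up than down. In mature against immature thymic cDC1, 15 of the 49 tested members rose (30.6%, against 21.3% of all 14970 genes tested) and 6 fell (12.2%, against 24.5%), 21 in all where 45.7% of genes were called in either direction. A gene was called where its limma adjusted p was below 0.1 and its level differed by more than 2-fold. In cDC2, 15 rose (30.6%, against 18.6%) and 4 fell (8.16%, against 17.0%), 19 in all against 35.6% of genes. The median log2 fold change of the members was 0.39 in cDC1 and 0.49 in cDC2, against -0.04 and 0.04 over all genes tested. Of the 21 members called in cDC1 and the 19 called in cDC2, 14 rose in both and 2 fell in both, and 0 were called in opposite directions. The samples of both groups did not overlap for 19 of the 21 and for 19 of the 19. Shares over all genes were not computed for these counts or for the shared calls, so neither is read as a trait of the family. Without mature cDC2 replicate 3, 18 members were called in cDC2. All mature libraries were sequenced in lane 8, and within that lane 21 of 21 and 19 of 19 kept their direction. That check reused all mature samples with 3 immature cDC1 and 2 immature cDC2 samples, so it is not independent of the calls.

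**Figure D1:**
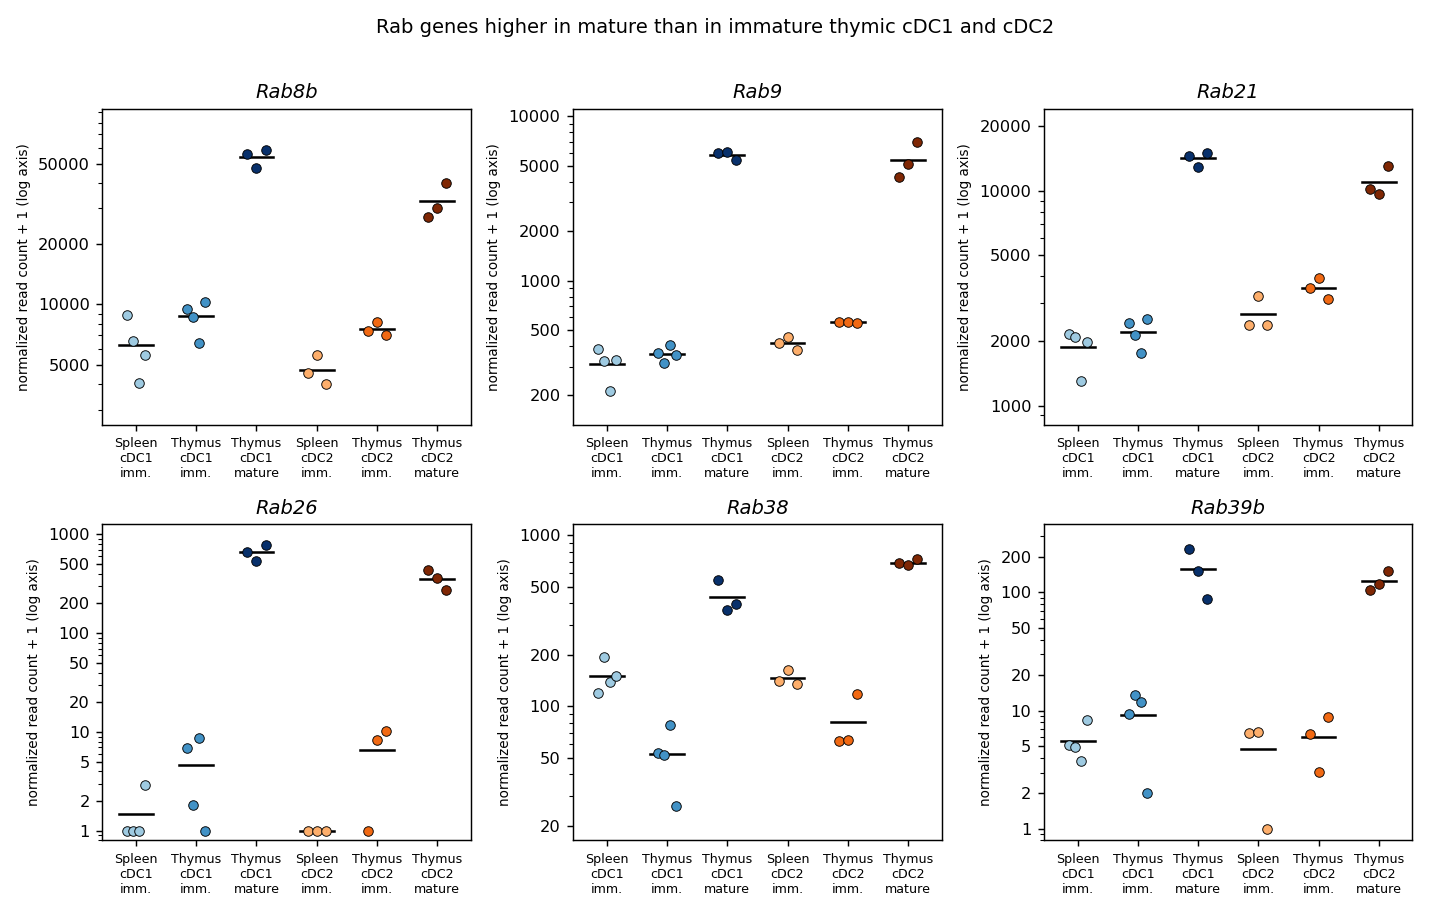
Normalized read count plus 1 (log axis) of 6 Rab genes in every sample of the 6 groups, each point being a sample and each bar the group mean. The 3 mature cDC1 and 3 mature cDC2 samples lie above every immature sample in all 6 panels.

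Among the Rabs of secretion and polarized exocytosis, 4 of 9 tested members rose in each subset (Rab8b, Rab12, Rab13 and Rab26), and 1 fell in each (Rab3a in cDC1 and Rab3d in cDC2). Over all genes tested, 21.3% rose and 24.5% fell in cDC1, and 18.6% rose and 17.0% fell in cDC2. With so few members, the counts are not read as a trait of this role. Rab8b lies at chr9:66843664-66919687 on the minus strand (mm10), downstream of the window shown above. Its normalized read count was 9425, 8689, 6410.2 and 10317 in the 4 immature thymic cDC1 samples and 55729.7, 47431 and 58542 in the 3 mature ones. In cDC2 it was 7387, 8179.8 and 7047 in immature and 27215, 30220.1 and 40033 in mature samples. The groups did not overlap, and the log2 fold change was 2.65 ± 0.22 (SE) in cDC1 and 2.09 ± 0.23 in cDC2 (limma adjusted p = 1.85e-09 and 3.05e-07). Its close relative Rab8a differed by less than 2-fold, with log2 fold changes of 0.39 and 0.51. Within a library the level per kb of Rab8b over that of Rab8a was 1.26 to 2.39 in immature and 8.39 to 9.80 in mature thymic cDC1, and 1.59 to 1.79 and 4.29 to 6.16 in cDC2.

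Rab26, a Rab of secretory granules, had the largest log2 fold change of the family in both subsets. It was at 5.91, 0.833, 7.80 and 0 in immature and 656, 541 and 788 in mature thymic cDC1. In cDC2 it went from 0, 7.37 and 9.35 to 432, 365 and 272, while splenic cells held 0 in all samples but 1 of cDC1, at 1.91. The gene was thus close to the limit of detection in every immature sample, and its log2 fold changes of 7.65 ± 0.78 and 6.31 ± 0.83 (adjusted p = 4.17e-08 and 2.73e-06, limma) depend on the pseudocount of 1. Its exons share 267 bases with Traf7 on the same strand. Rab12, which sends recycling receptors to lysosomes, rose from between 328 and 391 to between 1587 and 1991 in cDC1 (log2 fold change 2.27 ± 0.19) and from between 368 and 451 to between 981 and 1359 in cDC2 (1.46 ± 0.20). Rab13, a Rab of junctional and surface delivery, rose by 1.42 ± 0.29 and 2.24 ± 0.31 on the same scale, from the differing immature levels described further on. Rab3a and Rab3d serve regulated granule release. Rab3a was called lower in mature cDC1, at 0, 0 and 9.59 against 16.2 to 39.0. Rab3d fell in cDC2 from 769.6, 801 and 866 to 411, 404 and 362 (log2 fold change -1.05 ± 0.22), close to 2-fold, and without mature cDC2 replicate 3 the change was -0.99 and no longer called. Rab10 and Rab37 were not called at maturation in either subset.

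Late endosomal members moved both ways. Rab9 (chrX:166457253-166479867) was at 361, 316, 404 and 354 in immature thymic cDC1 and at 6017, 6107 and 5420.1 in mature ones. In cDC2 the counts were 561, 558 and 551 in immature and 4282, 5128 and 6955 in mature cells. Rab9 had the smallest adjusted p of the family in the cDC1 comparison (2.37e-13, limma), where its log2 fold change was 4.03 ± 0.18, and rose by 3.26 ± 0.19 on that scale in cDC2 (adjusted p = 4.97e-11). Rab7 moved the other way by less than 2-fold, from between 9619 and 11582 to between 5888 and 8042 in cDC1 and from between 8503 and 9329 to between 5122 and 6211 in cDC2 (log2 fold changes -0.72 ± 0.13 and -0.64 ± 0.14, adjusted p = 6.16e-05 and 0.000633, limma). The level per kb of Rab9 over that of Rab7 was thus 0.0410 to 0.0549 in immature and 1.01 to 1.52 in mature thymic cDC1, and 0.0892 to 0.0968 and 1.23 to 1.80 in cDC2. Rab9b, the other gene of the Rab9 pair, was at 0 in all samples.

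Rab39, which takes part in phagosome maturation, fell in both subsets. It was at 669.9, 692, 403 and 774 in immature and 262, 109 and 174 in mature thymic cDC1. Among cDC2 samples it was at 206, 254 and 126 in immature and 44.5, 48.0 and 44.0 in mature cells. Neither pair of groups overlapped, and the log2 fold changes were -1.85 ± 0.35 and -2.02 ± 0.37 (adjusted p = 0.000119 and 0.000138, limma). Its relative Rab39b, a Golgi Rab known from neurons, rose over the same samples, from between 1.01 and 12.5 to between 88.0 and 234 in cDC1 and from between 2.01 and 7.79 to between 104 and 151 in cDC2 (log2 fold changes 4.30 ± 0.71 and 4.49 ± 0.76). Rab39b per kb stood at 0.00114 to 0.0237 of Rab39 in immature thymic cDC1, 0.441 to 1.21 in mature cDC1, 0.00690 to 0.0539 in immature cDC2 and 2.05 to 3.01 in mature cDC2. Rab34, which positions lysosomes and phagosomes, was low, with 15.2, 9.99, 3.12 and 33.3 in immature and 14.7, 15.6 and 48.0 in mature thymic cDC1, which overlapped. The cDC2 groups, at 26.7, 8.70 and 20.2 in immature and 58.3, 61.9 and 61.2 in mature cells, did not overlap, but the log2 fold change of 1.78 ± 0.87 was not called (adjusted p = 0.101, limma). Rab42 was called higher in both, at 33.2, 8.67 and 30.4 in mature cDC1 and 3.84, 18.8 and 3.92 in mature cDC2, but with samples at 0 in both immature thymic groups, so no fold is given. The cDC1 groups of Rab42 overlapped, and its cDC1 call was lost in DESeq2 (adjusted p = 0.145). Its cDC2 call was lost with a pseudocount of 8. Rab7b, the gene outside the naming rule, was at 13128 to 14946 in splenic and 15463 to 16741 in immature thymic cDC1, and at 57.2 to 213 in mature cDC1 (log2 fold change -7.25 ± 0.45, adjusted p = 2.74e-11, limma). All 3 groups of cDC2 held less than immature cDC1, with 81.2 to 236 in spleen, 464 to 765 in immature and 56.5 to 319 in mature thymic cells.

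Of the 8 early endosomal members, 3 rose in cDC1 (Rab20, Rab21 and Rab22a), and in cDC2 Rab21 and Rab22a rose and Rab24 fell. Beside these counts, 21.3% of all genes tested rose in cDC1, and 18.6% rose and 17.0% fell in cDC2. Counts of so few members are not read as a trait of the role. Rab21 (chr10:115287084-115315594), which recycles integrins, was at 2420.2, 2129.6, 1751 and 2532 in immature and 14434, 12947 and 15048 in mature thymic cDC1. In cDC2 the counts were 3513, 3918 and 3131 in immature and 10232, 9618 and 13069.6 in mature cells. The log2 fold changes were 2.69 ± 0.18 and 1.63 ± 0.19 (adjusted p = 9.31e-11 and 7.07e-07, limma), and the groups were far apart. Rab22a, which returns MHC class I to the surface, went from 1036, 957, 794 and 878 to 2387, 2638 and 3019.9 in cDC1. In cDC2 it went from 966, 986 and 821 to 1878, 2036 and 2315, with log2 fold changes of 1.55 ± 0.13 and 1.17 ± 0.14. Rab24, a Rab linked to autophagy, fell from 781, 732 and 894 to 289, 241 and 240.2 in cDC2 (log2 fold change -1.64 ± 0.21, adjusted p = 1.72e-06, limma). In cDC1 its change of -0.98 ± 0.19 lay just under 2-fold. Of its 2015 exonic bases, 1258 are shared with Prelid1 on the other strand, and without a known strand setting reads of the pair may not be told apart. The Rab5 genes, which govern the fusion of early endosomes, were called in neither subset. Rab5a was at 1939, 1873, 1399.7 and 2093 in immature and 2280.3, 2241 and 2344 in mature thymic cDC1, and at 1989.8, 2218 and 1639 in immature and 1390.3, 1626 and 2712 in mature thymic cDC2, with overlapping values in cDC2. Rab5b differed by 0.83 and 0.91 on the log2 scale, and Rab5c by -0.23 and -0.27.

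**Figure D2:**
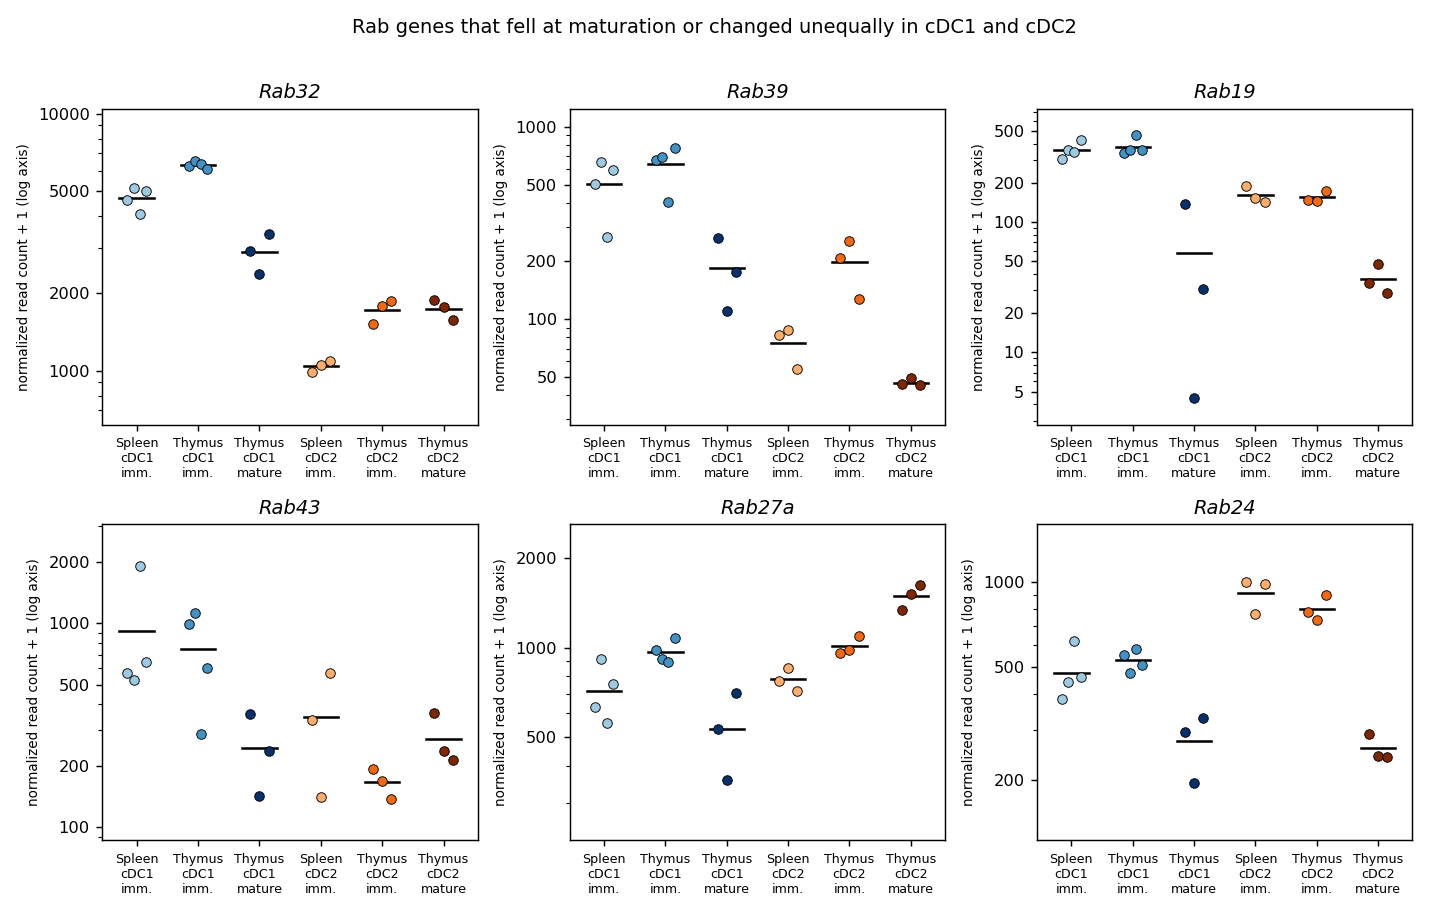
Normalized read count plus 1 (log axis) of 6 Rab genes in every sample, with bars at the group means. Rab39 and Rab19 lie lower in mature than in immature thymic cells of both subsets, Rab32 and Rab43 are called lower in mature cDC1 only, and Rab27a is lower in mature cDC1 and higher in mature cDC2 than in the immature cells.

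Rabs of lysosome-related organelles split between the paralogues Rab32 and Rab38, which share the task of filling melanosomes. Rab38 was at 52.4, 50.8, 76.5 and 25.3 in immature and 549, 364 and 394 in mature thymic cDC1. Its cDC2 counts were 61.9, 62.3 and 117 in immature and 684, 669 and 722 in mature cells. It rose in both subsets without overlap (3.14 ± 0.32 and 3.16 ± 0.34 on the log2 scale, adjusted p = 3.92e-08 and 1.92e-07, limma), and the difference between these changes was 0.01 ± 0.46 (SE). Rab32 fell in cDC1, from 6268, 6533, 6398 and 6107 to 2916, 2385 and 3408 (-1.14 ± 0.13, adjusted p = 2.18e-07, limma). In cDC2 it was at 1518, 1782 and 1868 in immature and 1886, 1764 and 1578 in mature cells, which overlapped. Rab38 per kb was 0.00614 to 0.0177 of Rab32 in immature and 0.172 to 0.279 in mature thymic cDC1, and 0.0518 to 0.0928 and 0.538 to 0.679 in cDC2. Rab7l1, known for its partner LRRK2, rose from between 387 and 688 to between 1471 and 1795 in cDC1 and from between 552 and 688 to between 2146 and 2208 in cDC2 (log2 fold changes 1.604 ± 0.167 and 1.81 ± 0.18). Rab27a, which docks lysosome-related organelles at the surface, was at 985, 918, 897 and 1073 in immature and 531, 357 and 703 in mature thymic cDC1. Among cDC2 samples it was at 961, 980.3 and 1093 in immature and 1342, 1515 and 1627 in mature cells. Neither change passed 2-fold (-0.92 ± 0.19 and 0.56 ± 0.21 on the log2 scale), but they pointed in opposite directions, as tested further on.

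Golgi and early secretory members held both a rise and a fall among near relatives. Rab30 (chr7:92741603-92844535), a Golgi Rab, was at 1337, 1337, 1270.2 and 1429.9 in immature and 3294, 3752 and 3283 in mature thymic cDC1. Its cDC2 counts were 165, 235 and 218 in immature and 2033, 2023 and 2937 in mature cells, and the log2 fold changes were 1.36 ± 0.20 and 3.49 ± 0.21 (adjusted p = 6.00e-06 and 6.30e-11, limma). Rab19, of the same branch of the family, fell. It was at 337, 356, 462 and 354 in immature and 136, 3.47 and 29.6 in mature thymic cDC1. In cDC2 it was at 147, 145 and 171 in immature and 33.0, 46.6 and 27.5 in mature cells, with log2 fold changes of -3.82 ± 0.65 and -2.11 ± 0.69 (adjusted p = 3.71e-05 and 0.0163, limma). The mature cDC1 values of Rab19 spanned 3.47 to 136, a wide spread beside the 3 mature cDC2 samples. Rab43, a Golgi Rab known for cross-presentation in cDC1, was called lower in mature cDC1 (994, 1119, 287 and 601 against 358, 142 and 234, log2 fold change -1.53 ± 0.51), with groups that overlapped (adjusted p = 0.0134, limma). Among cDC2 samples it was at 193, 167 and 137 in immature and 363, 237 and 213 in mature cells. Of the 5526 exonic bases of Rab43, 4164 are shared with Gm45140 on the same strand, so reads of the pair may not be told apart. Rab6b, the neuron-enriched partner of Rab6a in retrograde transport, rose in both subsets (from between 26.5 and 39.7 to between 41.6 and 128 and from between 84.1 and 85.7 to between 238 and 271), but without mature cDC1 replicate 3, the highest of its 3 samples, the cDC1 change was 0.64 and no longer called, against 1.11 ± 0.33 with it. Rab36 was called lower in mature cDC1, at 0, 0 and 4.80 against 6.06 to 17.2. Rab1, Rab1b, Rab2a, Rab2b, Rab6a, Rab18, Rab33b and Rab40c, which include the Rabs between endoplasmic reticulum and Golgi, were called in neither.

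Of the 7 tested recycling endosomal members, 0 were called in cDC1 and 1 in cDC2, beside 45.7% and 35.6% of all genes tested. Rab11a, the main Rab of the recycling endosome, was at 2212, 2325, 2108 and 2408 in immature and 1517, 2125 and 2098 in mature thymic cDC1. Its cDC2 counts were 1291, 1372 and 1484 in immature and 1876, 1790.1 and 2362 in mature cells, and the change (0.53 ± 0.20, log2) stayed under 2-fold. Rab14, of traffic between endosomes and Golgi, was at 4700.2, 4649.9, 2973 and 5075 in immature and 7534, 6008 and 6736 in mature thymic cDC1. In cDC2 the counts were 4653, 5555 and 4369 in immature and 6599, 6024 and 8433 in mature cells, and the log2 fold changes were 0.66 ± 0.21 and 0.52 ± 0.23. Rab35, of fast recycling, was at 1905, 1885, 2013 and 1753 in immature and 2122, 1541 and 2228 in mature thymic cDC1 and at 1569, 1594 and 1798 in immature and 2139, 1819 and 1708 in mature thymic cDC2, with overlapping groups in both. The 1 call was Rab15 in cDC2, at 8.54, 4.02 and 7.79 in immature and 37.6, 39.0 and 28.3 in mature cells (adjusted p = 0.0370, limma), which was lost without immature thymic cDC2 replicate 2 (adjusted p = 0.115). Of the ciliary members, Rab23, an inhibitor of Hedgehog signalling, rose in cDC1 from 76.9, 53.3, 71.8 and 98.02 to 1062, 627 and 947. In cDC2 it rose from 89.7, 104 and 82.6 to 229.5, 221 and 294. Rab28 came close to 2-fold in cDC1 (0.99 ± 0.16) and was at 0.34 ± 0.18 in cDC2.

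The change at maturation differed between the subsets for 7 of 49 members, by the test of the difference itself (13.6% of all genes tested). The signed difference, cDC2 minus cDC1, was positive for 4 members (8.16%, against 8.34% of all genes) and negative for 3 (6.12%, against 5.25%), shares near the background. Rab20, a Rab of phagosome and macropinosome maturation, showed the widest gap. It was at 7.60, 6.66, 6.24 and 0 in immature and 49.8, 166 and 196 in mature thymic cDC1, and at 101, 118 and 137 in immature and 119.8, 187 and 56.5 in mature thymic cDC2. It rose in cDC1 and was not called in cDC2, and the difference between the log2 fold changes, cDC2 minus cDC1, was -4.79 ± 1.03 (limma adjusted p = 0.00394). Rab30 rose further in cDC2 (2.13 ± 0.29, adjusted p = 4.90e-05, limma), from a lower immature level. Rab23 and Rab21 rose further in cDC1 (-2.11 ± 0.51 and -1.06 ± 0.27, adjusted p = 0.00857 and 0.0111, limma). For Rab27a the difference was 1.48 ± 0.28, for Rab32 1.16 ± 0.19 and for Rab43 2.21 ± 0.74 (adjusted p = 0.00150, 0.000359 and 0.0551, limma). The Rab21 difference lay close to 2-fold and was -0.98 to -0.95, and no longer called, without immature thymic cDC2 replicate 2, mature cDC2 replicate 2 or immature thymic cDC1 replicate 3. The Rab43 difference was lost (adjusted p = 0.103 to 0.135) without immature thymic cDC1 replicate 1 or 2, immature thymic cDC2 replicate 3, mature cDC2 replicate 1 or mature cDC1 replicate 2.

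**Figure D3:**
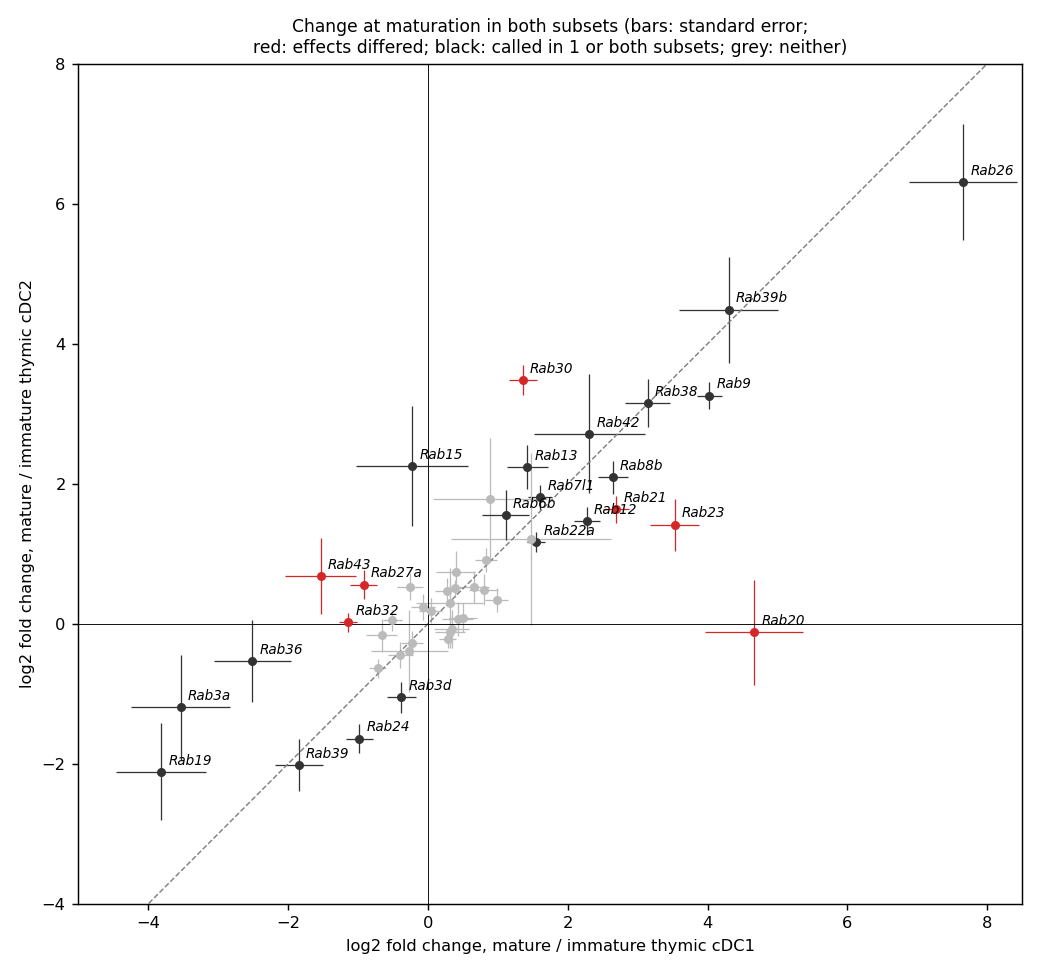
Log2 fold change of mature over immature cells in thymic cDC1 (x axis) and cDC2 (y axis) for the 49 tested Rab genes, with standard errors as bars. Red points are the 7 members whose changes differed between the subsets, black points other called members, and the dashed line marks equal change. Rab20 lies far below the line and Rab30 above it.

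Between thymus and spleen, few members differed in immature cDC1. There, 1 of 49 was higher in thymus (2.04%, against 4.26% of all genes tested) and 5 were lower (10.2%, against 4.52%), against 8.77% of genes in either direction. In cDC2, 6 were higher (12.2%, against 8.30%) and 3 lower (6.12%, against 5.87%), against 14.2% in either direction. Rab13 was higher in thymus in both subsets, and Rab37 and Rab6b lower in both. Within lane 8, 6 of 6 and 9 of 9 called members kept their direction, and within lane 5, 6 of 6 and 8 of 9 did, Rab26 in cDC2 being the exception. Each lane held part of the samples that gave the calls, in places 1 sample in a group, so these checks are not independent of the calls. Without splenic cDC2 replicate 2 the cDC2 count was 7 and without replicate 3 it was 5, and without splenic cDC1 replicate 3 the cDC1 count was 7. Markers of other cells also differed between the tissues in cDC2. The plasmacytoid marker sum was 3280.2 to 3963 in spleen and 10563 to 12156 in thymus, that of T cells 33.1 to 93.3 and 212 to 315, and the mean of C1qa 359.9 and 2289. In cDC1 the plasmacytoid sum was 3363 to 3865 and 5189 to 5988, and that of T cells 51.5 to 84.8 and 175 to 235. Their part in the tissue results was not tested.

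Rab13 had the largest log2 fold change between the tissues among the called members in cDC2. In spleen it was at 124, 132, 82.2 and 79.6 in cDC1 and at 3.66, 2.50 and 1.63 in cDC2. In immature thymic cells it was at 238, 302, 410.4 and 207 in cDC1 and 87.5, 63.6 and 79.4 in cDC2. In mature cells it was at 728, 749 and 778 in cDC1 and 328, 409.95 and 359 in cDC2. Each step up was without overlap in each subset, from a level close to 0 in splenic cDC2. The log2 fold change of thymus over spleen was 1.45 ± 0.27 in cDC1 and 4.46 ± 0.31 in cDC2 (adjusted p = 0.000682 and 2.72e-09, limma), and the 2 differed by 3.01 ± 0.41 (adjusted p = 0.000101).

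Rab37, a Rab of mast cell and other secretory granules, showed the reverse order. It was at 87.5, 92.7, 83.1 and 57.8 in splenic and 13.5, 4.997, 7.80 and 50.5 in thymic immature cDC1. In cDC2 it was at 327, 299.9 and 295 in spleen and 17.1, 19.4 and 18.7 in thymus. The log2 fold changes were -2.51 ± 0.51 and -3.99 ± 0.59 (adjusted p = 0.00169 and 4.82e-05, limma), although the cDC1 call was lost within lane 8 (adjusted p = 0.144). Mature cells held 7.37 to 13.6 in cDC1 and 8.44 to 25.8 in cDC2. Rab6b was at 83.4, 137, 146 and 118 in splenic and 39.7, 28.3, 26.5 and 28.3 in thymic cDC1 (log2 fold change -1.93 ± 0.31). Among cDC2 samples it was at 145, 173 and 218 in spleen and 85.4, 85.7 and 84.1 in thymus (-1.04 ± 0.36), a call lost without splenic or immature thymic cDC2 replicate 3 (-1.03 to -0.89). Rab6b was thus lower in immature thymic than in splenic cells and higher again in mature cells. The same order held for Rab38 in cDC1, at 118, 193, 138 and 149 in spleen against the 25.3 to 76.5 given above for thymus (-1.60 ± 0.29).

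Rab39 and Rab3d were called higher and Rab30 lower in thymus in cDC2, and none of these was called in cDC1. Rab39 was at 81.4, 86.8 and 53.8 in spleen and at 126 to 254 in thymus (1.36 ± 0.37), a call lost within lane 8 (adjusted p = 0.112). Rab3d went from between 303 and 443 to between 769.6 and 866 (1.13 ± 0.22), a call lost without splenic cDC2 replicate 2 (0.99) and within lane 8 (adjusted p = 0.156). Rab30 was at 624, 674 and 466 in splenic cDC2 against 165 to 235 in thymus (-1.51 ± 0.21), and at 1246 to 2411 and 1270.2 to 1429.9 in cDC1. The tissue effect on Rab30 differed between the subsets by -1.21 ± 0.28 (adjusted p = 0.0123, limma), though not within lane 8 (adjusted p = 0.229). With Rab13 this made 2 of 49 members whose tissue effect differed, 1 with a positive signed difference, cDC2 minus cDC1 (2.04%, against 3.27% of all genes tested), and 1 with a negative (2.04%, against 1.71%), where 4.98% of genes differed in either direction. Rab15, Rab26 and Rab34 were called higher in thymic cDC2 at low levels. Rab34 was at 10.1, 0 and 4.89 in spleen and 26.7, 8.70 and 20.2 in thymus. Rab15 was lost without splenic cDC2 replicate 3 or immature thymic cDC2 replicate 1 or 3 (adjusted p = 0.104 to 0.112), and Rab26 without any 1 of the 3 splenic cDC2 samples or immature thymic cDC2 replicate 2 or 3 (0.125 to 0.309). Rab34 was lost without splenic cDC1 replicate 2, splenic cDC2 replicate 2 or 3, immature thymic cDC1 replicate 1 or 2, immature thymic cDC2 replicate 1 or 3, or mature cDC2 replicate 1 or 2 (0.103 to 0.396).

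**Figure D4:**
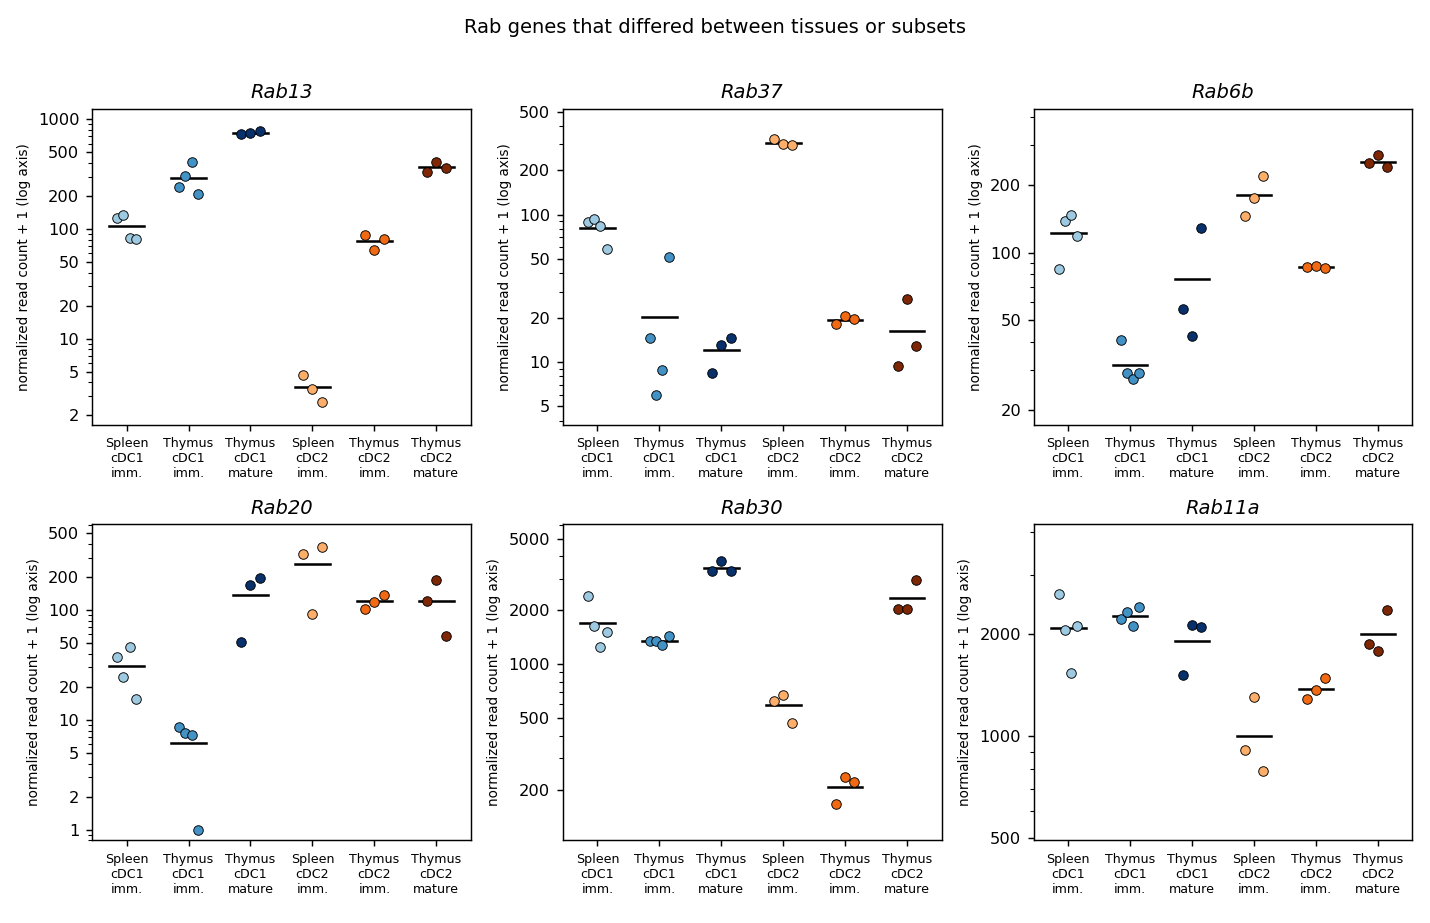
Normalized read count plus 1 (log axis) of 6 Rab genes in every sample of the 6 groups, with bars at the group means. Rab13 is lowest and Rab37 highest in splenic cDC2, and Rab20 is lowest in immature thymic cDC1.

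Between the subsets, 8 members differed in each of the 3 pairs of groups. In spleen 2 were higher in cDC2 (4.08%, against 9.93% of all genes tested) and 6 lower (12.2%, against 6.70%), against 16.6% of genes in either direction. In immature thymic cells 3 were higher (6.12%, against 11.0%) and 5 lower (10.2%, against 5.42%), against 16.4% in either direction. In mature cells 5 were higher (10.2%, against 14.6%) and 3 lower (6.12%, against 4.36%), against 18.9% in either direction. Rab39 and Rab13 were lower in cDC2 in all 3 pairs, although Rab13 in mature cells stood close to 2-fold (-1.04 ± 0.31) and lost its call without mature cDC2 replicate 1 (-0.97). Within lane 8, 8 of 8 called members kept their direction in spleen and in immature thymus, as did 8 of 8 within lane 5 in each. These lane checks also reused the samples that gave the calls, with 1 sample per group in immature thymus in lane 5. They are not independent of the calls. All mature samples were in lane 8, so the mature pair cannot be checked in this way. The splenic count was also 8 without splenic cDC1 replicate 3 and 8 without splenic cDC2 replicate 2.

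Rab32 was higher in immature cDC1 than in immature cDC2 in both tissues. It was at 4621, 5117, 4052 and 5019 in splenic cDC1 and 985, 1053 and 1093 in splenic cDC2. The log2 difference, cDC2 over cDC1, was -2.17 ± 0.13 in spleen and -1.88 ± 0.13 in immature thymic cells (adjusted p = 8.28e-11 and 9.87e-10, limma), and -0.72 ± 0.14 in mature cells, under 2-fold. Rab39 was at 500.3, 656, 264 and 593 in splenic cDC1, against 53.8 to 86.8 in splenic cDC2, and the 3 log2 differences were -2.70 ± 0.35, -1.71 ± 0.35 and -1.89 ± 0.37. Rab30 was lower in cDC2 in spleen and immature thymus (-1.50 ± 0.20 and -2.71 ± 0.20, adjusted p = 6.30e-06 and 2.10e-09, limma) but not called in mature cells (-0.58 ± 0.21). Rab43 in spleen was at 567, 527, 1902 and 644 in cDC1 and 334, 139.9 and 569 in cDC2, which overlapped, and the call (-1.38 ± 0.51) was lost without splenic cDC1 replicate 3 (-0.95) or splenic cDC2 replicate 2 (-0.83, adjusted p = 0.302). In immature thymic cells, where the values did not overlap, the log2 difference of Rab43 was -2.005 ± 0.51 (adjusted p = 0.00577, limma). Rab11a was at 2636, 2058, 1539 and 2117 in splenic cDC1 and 908, 1302 and 787 in splenic cDC2 (-1.07 ± 0.18), close to 2-fold, and its call was lost without splenic cDC1 replicate 1 or splenic cDC2 replicate 3 (-0.95 to -0.91). The Rab11a call was also lost when samples of a group with the same number in the labels were averaged.

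Rab20 and Rab37 were the 2 members higher in splenic cDC2. Rab20 was at 36.0, 23.7, 45.3 and 14.4 in splenic cDC1 and 320.3, 90.6 and 375 in splenic cDC2. Its log2 difference was 2.97 ± 0.71 in spleen, 4.67 ± 0.71 in immature thymus and -0.12 ± 0.75 in mature cells, where both subsets held it. For Rab37 the splenic difference was 1.94 ± 0.55 (adjusted p = 0.0122, limma), which was lost within lane 8 (adjusted p = 0.327). Rab6b was higher in cDC2 in immature and mature thymic cells (1.46 ± 0.33 and 1.90 ± 0.36). In mature cells Rab27a was higher in cDC2, by 1.54 ± 0.21 (adjusted p = 1.64e-05, limma), whereas in spleen it was at 629, 918, 554 and 756 in cDC1 and 771, 856 and 715 in cDC2, which overlapped. Rab23 was lower in mature cDC2 than in mature cDC1 (-1.80 ± 0.37, adjusted p = 0.00133). Rab36, Rab15 and Rab3a were called higher in mature cDC2 than in mature cDC1 at low levels. Rab36 was at 0, 0 and 4.80 in mature cDC1 and 19.2, 20.9 and 17.3 in mature cDC2, and it was also called higher in immature thymic cDC2, at 20.2 to 34.1 against 6.06 to 17.2. The latter call was lost without immature thymic cDC2 replicate 1 or 2 or immature thymic cDC1 replicate 2 or 4 (adjusted p = 0.128 to 0.174). The Rab15 call in mature cells was lost without mature cDC1 replicate 2 (0.163) and that of Rab3a without replicate 1 or 2 of either mature group (0.133 to 0.258). Both were also lost in the tests on recovered reads.

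**Figure D5:**
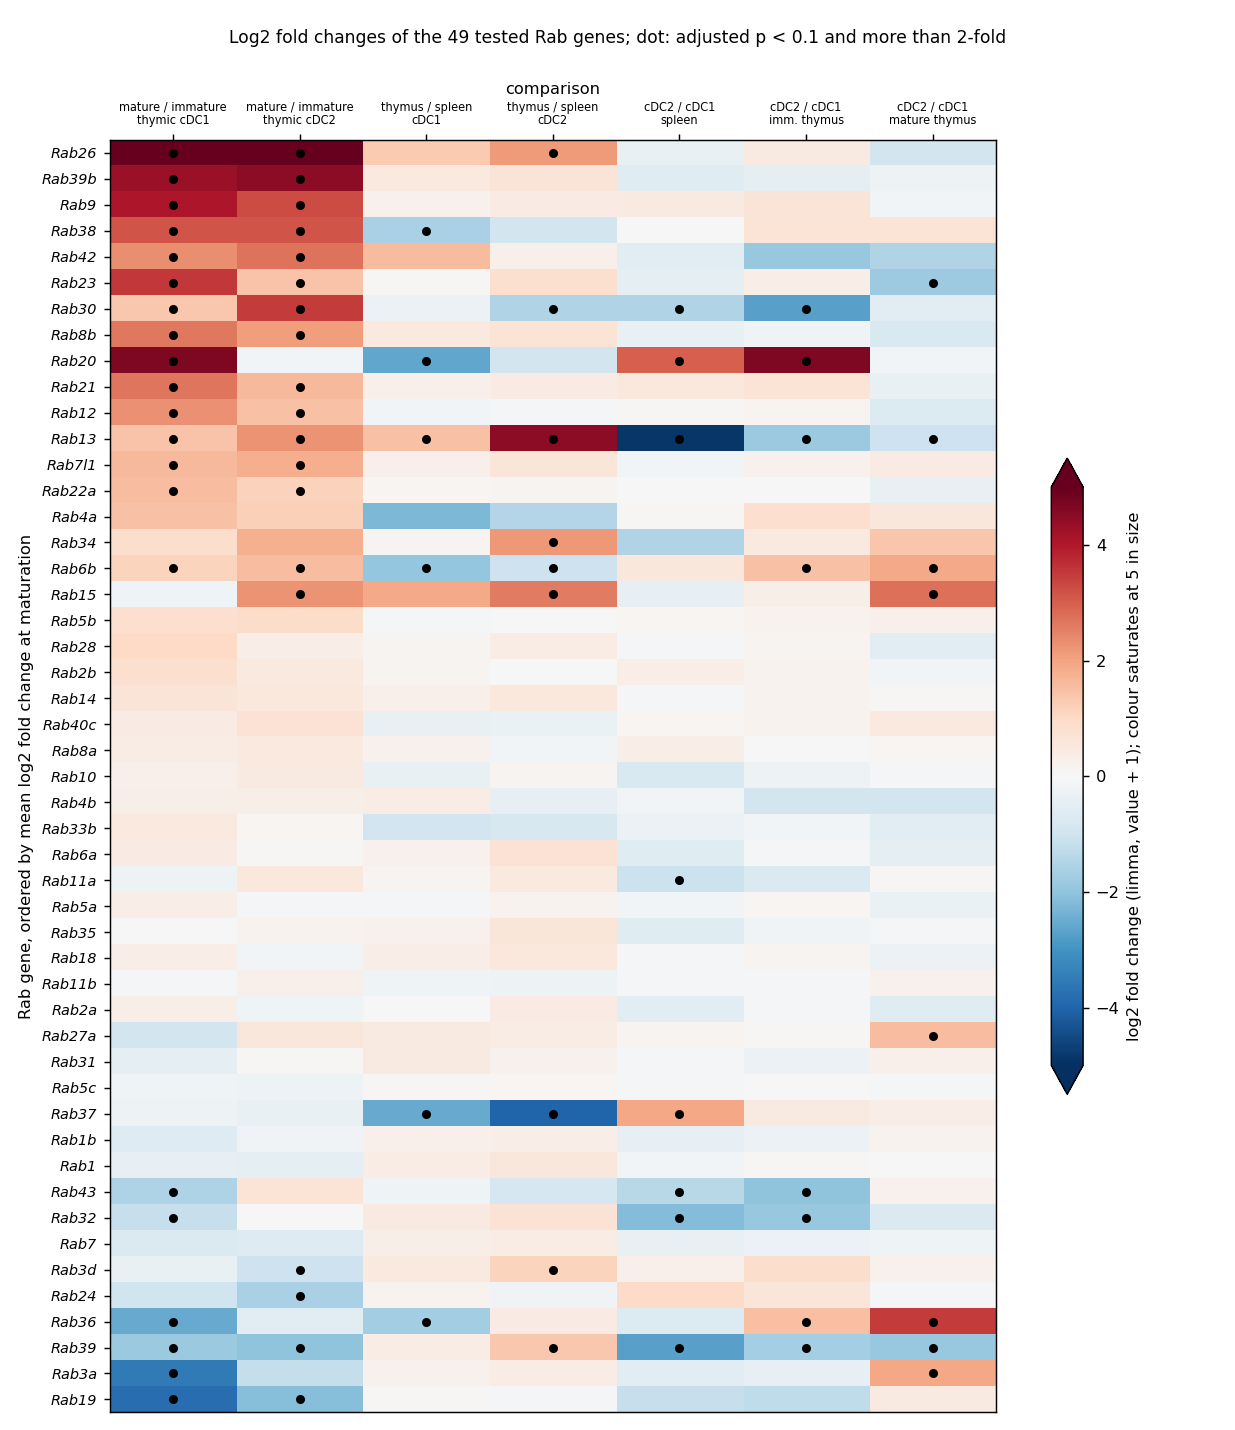
Log2 fold change (colour, saturating at 5 in size) of the 49 tested Rab genes, as rows, in the 7 comparisons of 2 groups, as columns, with a dot where a member was called. Rows are ordered by the mean log2 fold change of the 2 maturation columns, so that dots of these columns gather at the top and bottom through the order itself. No dot stands in 21 rows.

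The 21 members called in none of the 7 comparisons were Rab1, Rab1b, Rab2a, Rab2b, Rab4a, Rab4b, Rab5a, Rab5b, Rab5c, Rab6a, Rab7, Rab8a, Rab10, Rab11b, Rab14, Rab18, Rab28, Rab31, Rab33b, Rab35 and Rab40c. Of the 9 untested members, Rab3b, Rab3c, Rab9b, Rab17, Rab25, Rab27b, Rab33a, Rab40b and Rab44, the highest value was 22.0, in Rab27b in a mature cDC2 sample. Rab27b, the partner of Rab27a, was at 2.13, 6.70 and 12.5 in immature and 6.14, 2.78 and 22.0 in mature thymic cDC2. Rab3b was at most 6.24 and Rab3c at most 5.60, so differences in them were not detectable at this depth. Rab44 was at 0 in every cDC1 sample and at 1.87 to 7.32 in splenic cDC2.

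The proteins that act on Rabs moved in both directions at maturation. Gdi2, a GDP dissociation inhibitor, fell from 27653 ± 2438 (SD, n = 4) to 12451 ± 439 (n = 3) in cDC1 and from 34716 ± 3519 to 14219 ± 1856 (n = 3 and 3) in cDC2 (log2 fold changes -1.15 ± 0.16 and -1.29 ± 0.17, SE). Of 34 tested GEFs, 14 rose and 7 fell in cDC1, and 8 rose and 5 fell in cDC2. Over all genes tested, 21.3% rose and 24.5% fell in cDC1 and 18.6% rose and 17.0% fell in cDC2, to be read beside this count and those of the GAPs and effectors. Ankrd27, an activator of Rab21 that also binds Rab32 and Rab38, rose by 1.11 ± 0.14 and 1.71 ± 0.15 on the log2 scale. Sbf2, an activator of Rab21 and Rab28, rose by 2.43 ± 0.17 and 3.08 ± 0.18, and Rin3, an activator of Rab5 and Rab31, fell, with log2 fold changes of -2.81 ± 0.29 and -2.53 ± 0.31. Hps4, part of the activator of Rab32 and Rab38, fell in cDC1 (-1.24 ± 0.21), and was not called in cDC2 (-0.21 ± 0.22). Rin2 was higher in cDC2 than in cDC1 in all 3 pairs of groups, by 3.41 ± 0.17, 4.56 ± 0.17 and 2.04 ± 0.18.

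Of 34 tested GAPs, 10 rose and 4 fell in cDC1, and 7 rose and 2 fell in cDC2. Tbc1d4, a GAP for Rab8a, Rab10 and Rab14, reached 88019 ± 7992 in mature cDC1 and 112347 ± 47156 in mature cDC2, from 13426 ± 1374 and 11077 ± 1211 (log2 fold changes 2.71 ± 0.24 and 3.27 ± 0.26). Tbc1d1, its close relative, rose by 1.71 ± 0.13 and 1.32 ± 0.14. Among 43 tested effectors, 9 rose and 2 fell in cDC1, and 10 rose and 3 fell in cDC2. Mical3, an effector of Rab8, rose by 4.36 ± 0.19 and 4.27 ± 0.20, Micall1, which binds Rab8 and Rab35, by 1.90 ± 0.19 and 1.67 ± 0.20, and Vps39, of the complex that tethers late endosomes with Rab7, by 2.07 ± 0.12 and 2.13 ± 0.13. Mical1 fell, with log2 fold changes of -3.13 ± 0.20 and -2.32 ± 0.22. Myrip, which links Rab27a to myosin, was at 95.3 ± 18.0 in immature thymic cDC2 and at most 16.8 on average in the other groups. The medians of the GEF, GAP and effector lists lay at 0.56, 0.31 and 0.46 in cDC1 and at 0.52, 0.21 and 0.25 in cDC2 on the log2 scale, beside -0.04 and 0.04 for all genes tested.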

How the data were processed

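RNA was measured by RNAseq (TruSeq stranded mRNA) in 21 libraries. The authors trimmed reads with Cutadapt, aligned them with STAR 2.6 to mm10, used HTSeq-count to obtain reads per gene, and scaled these between libraries with DESeq2 1.24.0. The annotation release and strand setting are not given in the sources used here. The deposited values are normalized read counts, a signal that is comparable between libraries. They came out as whole reads for 100% of values within 0.01 of a read, so depth was known for every library.

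Groups were taken from the sample labels. The mean of values on log2(value + 1) was fitted per group over all 20 samples with limma 3.58.1 (R 4.3.3, trend), for the 14970 genes at 10 or more in at least 3 samples, and Benjamini-Hochberg adjusted p-values below 0.1 with a change above 2-fold were called. Fold changes on this scale understate those of low genes. Values are listed in replicate order, and levels per kb used GENCODE exon lengths on GRCm38. Promoter windows came from RefSeq.

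Each sample's value is given for Rabs known from dendritic cell or antigen-presenting cell work, and for up to 5 largest rises and 5 largest falls per comparison among called members with a mean of at least 50 and no overlap. The members and lists were chosen with earlier results of these data known. Immature thymic cDC1 replicates 3 and 4 carry the same number in the labels but differed more than every other pair of that group and were kept apart. Their chi-square per degree of freedom was 100.5, against 24.6 to 93.6. The alternatives were edgeR 4.0.16 and DESeq2 1.42.0 on recovered reads, pseudocounts of 0.1 and 8, other filters and scaling, fewer or more samples, lane 8 alone, each sample left out, the replicate block and, chosen after seeing the data, lane as a covariate. On simulated data with 200 genes changed between mature and immature thymic cDC1 among 14456, limma recovered 97.5%, and 32 of its 227 calls were false. The changed genes averaged at least 50 reads, all changed by more than 2-fold, and every gene had the same dispersion. Far fewer genes changed than were called in the data. These rates therefore do not carry over to members that are low or close to 2-fold. The list of inhibitor and escort genes is not reported here as a whole.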

Additional observations from a re-analysis of the deposited data

Results flagged for a closer look

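Samples that stood apart from the rest of their group were looked for in 98 groups of 4 values, of which chance alone would give about 1 in 20, and 11 were found. Of these, 5 were replicate 3 of splenic cDC1, the library that differed most from its group. Its normalized read count was 5079 for Rab5c (3844 to 4047 in the others), 276 for Rab12 (448 to 467), 754 for Rab22a (867 to 882), 1902 for Rab43 (527 to 644) and 3419.9 for Rab11b (2479 to 2635). Replicate 2 of that group held 1814 for Rab5b (1431 to 1485), and its averaged sample 4 held 1.91 for Rab26, where the others held 0. Replicate 3 of immature thymic cDC1 held 443 for Rab28 (530 to 543), 462 for Rab19 (337 to 356) and 2072 for Rab2a (1762 to 1809). Replicate 1 of that group held 39.7 for Rab6b (26.5 to 28.3).

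The maturation effect in cDC2 minus that in cDC1, tested in limma on the log2 scale, was -4.79 for Rab20, -1.06 for Rab21, -2.11 for Rab23, 1.48 for Rab27a, 2.13 for Rab30, 1.16 for Rab32 and 2.21 for Rab43. The tissue effect in cDC2 minus that in cDC1 was 3.01 for Rab13 and -1.21 for Rab30.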

How the results depend on the processing

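Of 88 calls of a member in a comparison, 64 held under every alternative, 24 were lost under some and 16 of these without a single sample; none changed sign. When only genes at 10 or more in every sample were kept (37 members), the called members numbered 13 at maturation in cDC1, 2 and 4 between the tissues in cDC1 and cDC2, 5, 5 and 4 between the subsets in spleen, immature thymus and mature thymus, and 1 for the difference of tissue effects. Of all 10135 genes tested with that filter, 1888 rose and 2207 fell at maturation in cDC1. With no fold threshold the called members numbered 34 and 29 at maturation in cDC1 and cDC2, 20 between tissues in cDC2, 17, 13 and 17 between the subsets, and 13 for the difference of maturation effects. Of all 14970 genes tested, 4553 rose and 5048 fell in cDC1 at that setting, and 4142 and 3817 in cDC2. Between tissues in cDC2, 2230 were higher and 1735 lower. The member counts under these alternatives are not read as a trait of the family. Lane 8 alone gave 5 called members between tissues in cDC2 and 1 for the difference of tissue effects, and a pseudocount of 8 gave 5 and 4. DESeq2 gave 4 for the difference of tissue effects. The cause was not tested, apart from the smaller number of members or samples where the alternative removes them.

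With each sample left out, the counts ran from 21 to 24 and from 18 to 21 at maturation in cDC1 and cDC2, from 6 to 7 and from 5 to 9 between tissues, from 7 to 9, 7 to 10 and 6 to 9 between the subsets in spleen, immature thymus and mature thymus, and from 6 to 10 and 2 to 3 for the differences of maturation and tissue effects. Samples of cDC1 and cDC2 from the same tissue and state that shared a number in the labels had correlations of -0.150 to 0.461, against -0.492 to 0.258 for those with different numbers. These ranges overlapped, so the values do not settle whether the samples were paired. Mature cDC1 replicate 1 carries number 8, as do immature thymic cDC1 replicates 3 and 4. Pairing between mature and immature samples was not examined. A replicate block gave 9 called members between subsets in spleen and 9 in immature thymus, as the same libraries did without it. Over all genes tested, the block called 1499 higher and 1017 lower in splenic cDC2, against 1441 and 991 without it. In immature thymic cDC2 it called 1433 and 813, against 1492 and 822. TMM scaling moved the median of all genes by at most 0.06 on the log2 scale. Where members lay below about 10 normalized reads in a group, depth and the pseudocount limited the fold change.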
